A study of Homo sapiens with 24 samples.

Results

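The genes described are 9 members of the coinhibitory machinery of lymphocytes: CD200 and BTLA, which lie next to each other on chromosome 3, the ligands CD274 and PDCD1LG2, the BTLA ligand TNFRSF14, the receptors CD22, CD72 and LAIR1, and the adaptor LAX1. They were picked by symbol from the annotation of the array and read over all 4 agents in both cell lines. Each symbol had exactly 1 probe set with no other symbol on it, so 9 probe sets stand for the 9 genes among 33297 on the array, of which 21214 carried at least 1 symbol. The genes were picked with earlier results of these arrays in view, so every value given for them is a description, and no test on them counts as independent evidence.

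The study measured RNA on whole-transcript Affymetrix arrays from GM10861 and GM10855, B-lymphoblastoid cell lines of the HapMap collection, that is, B cells immortalised with Epstein-Barr virus and grown in culture. Each line was assayed with calcitriol and estrogen together for 36 h, with calcitriol alone for 36 h, with estrogen alone for 36 h, and untreated at 0 h, on 3 arrays per group and 24 arrays in all. Calcitriol is the hormonally active form of vitamin D, and the title of the series names vitamin D and gene expression as its subject. Each line comes from 1 person's B cells, and no dose, estrogen compound or vehicle is given in the sources used here. The untreated arrays were taken at 0 h, so in any comparison with them the agent and 36 h of culture cannot be told apart. Calcitriol added to estrogen, estrogen added to calcitriol and calcitriol against estrogen are matched in time.

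Coinhibitory receptors damp the signals that a lymphocyte receives through its antigen receptor. Many carry immunoreceptor tyrosine-based inhibitory motifs in their tails, short tyrosine sites that recruit phosphatases such as SHP-1 and SHIP-1 once phosphorylated. Others act as ligands and engage an inhibitory receptor on a neighbouring cell. On B cells the balance of both sets the threshold for activation, and ligands of PD-1 on B-lineage cells are known for restraining T cells.

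The start sites of the 4 genes that most of the results turn on are shown first, because CD200 and BTLA are neighbours and because calcitriol acts through the vitamin D receptor, which binds pairs of hexamers. The windows run from 250 bases before to 50 bases after the start of the gene, from RefSeq on GRCh38.p14, 5′ to 3′ on the strand of the gene. Capitals mark a match to the hexamer AGGTCA, or to GGGTCA, or to AGTTCA, or to GGTTCA, on either strand. The CD200 window is chr3:112332906-112333205 on the plus strand and the BTLA window is chr3:112499423-112499722 on the minus strand, so these genes are transcribed toward each other. The CD274 window is chr9:5450292-5450591 on the plus strand and the LAX1 window is chr1:203764933-203765232 on the plus strand.
CD200: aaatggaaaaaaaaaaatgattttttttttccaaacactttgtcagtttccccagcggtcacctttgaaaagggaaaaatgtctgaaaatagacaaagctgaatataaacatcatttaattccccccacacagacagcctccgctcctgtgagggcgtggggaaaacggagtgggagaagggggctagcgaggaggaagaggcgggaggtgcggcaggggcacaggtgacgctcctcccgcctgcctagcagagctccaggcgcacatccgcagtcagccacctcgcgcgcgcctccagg
BTLA: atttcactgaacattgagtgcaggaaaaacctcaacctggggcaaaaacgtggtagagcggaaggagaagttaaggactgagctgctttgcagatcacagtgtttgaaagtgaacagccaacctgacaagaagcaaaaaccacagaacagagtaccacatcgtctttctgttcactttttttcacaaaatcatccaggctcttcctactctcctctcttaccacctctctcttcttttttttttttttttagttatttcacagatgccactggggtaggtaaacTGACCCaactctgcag
CD274: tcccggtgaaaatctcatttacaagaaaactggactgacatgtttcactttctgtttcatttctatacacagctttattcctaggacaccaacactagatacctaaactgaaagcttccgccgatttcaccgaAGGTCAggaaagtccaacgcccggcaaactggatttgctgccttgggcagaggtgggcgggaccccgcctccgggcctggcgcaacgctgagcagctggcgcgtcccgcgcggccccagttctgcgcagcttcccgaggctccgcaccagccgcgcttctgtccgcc
LAX1: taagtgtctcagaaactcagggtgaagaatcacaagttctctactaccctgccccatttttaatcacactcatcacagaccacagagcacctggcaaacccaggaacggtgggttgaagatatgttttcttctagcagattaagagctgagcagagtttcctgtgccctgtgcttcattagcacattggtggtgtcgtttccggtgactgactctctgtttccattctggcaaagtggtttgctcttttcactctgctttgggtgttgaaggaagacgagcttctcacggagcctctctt

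The table of RefSeq promoters matched 8 of the 9 genes, with 2 windows for LAIR1. It held none for PDCD1LG2, whose start was therefore not searched. A single hexamer stood in the BTLA window, 35 to 40 bases after the start on the opposite strand, and in the CD274 window at positions -117 to -112 from the start. It also stood in 1 of the LAIR1 windows, at -6 to -1 on the opposite strand. It was absent from the CD200 and LAX1 windows, and 38.6% of 35114 RefSeq promoters of the same length held at least 1 such hexamer on either strand. A pair of these hexamers in the same direction with 3 bases between them is a strict form of the classical vitamin D response element. Hexamers with other letters were not searched. Such a pair of the listed hexamers was in none of the members' windows and in 0.074% of all promoters. The palindromic estrogen response element, GGTCA then any 3 bases then TGACC, was likewise in none of them and in 0.057% of all. The interferon gamma-activated site TTCNNNGAA, read on both strands, stood in the BTLA window at -248 to -240 and in the CD274 window at -125 to -117, where it shares 1 base with the hexamer, and it was in 7.66% of all promoters. The core of the interferon-stimulated response element, GAAA then any 2 bases then GAAA, stood in the CD274 window only among the 4 shown, as 2 overlapping matches between -208 and -193, and in 3.57% of all promoters. These matches describe letters in a window and are not binding sites.

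Values throughout are the deposited log2 signals, and a change is a difference of log2 means averaged over the lines unless a line is named, with its SE. The arrays of 1 group correlated with each other at 0.990 to 0.995 over the 21214 probe sets, and arrays of different lines at 0.972 to 0.979. Whether the 3 arrays came from separate cultures is not stated in the labels, so p-values measure only the spread between these arrays. A probe set is called where its limma p, adjusted by Benjamini-Hochberg over all 21214 probe sets of that comparison, is under 0.05. As a check of the calcitriol label, CAMP, an antimicrobial peptide gene, was 2.31 ± 0.0723 higher on the 12 arrays with calcitriol than on the 12 without it, CYP24A1, whose enzyme degrades calcitriol, was 2.07 ± 0.0815 higher, and VDR, the vitamin D receptor gene, was 0.38 ± 0.044 higher.

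CD200, a membrane glycoprotein that restrains myeloid and T cells through the receptor CD200R1, and BTLA, an inhibitory receptor that binds TNFRSF14, were both higher wherever calcitriol was present, 1.26-fold and 1.27-fold with calcitriol alone against untreated. Their 6 arrays with calcitriol all lay above the 6 without it in both lines, which 0.335% of all probe sets showed. CD274 followed most clearly where calcitriol and estrogen were given together, and LAX1 was lower with calcitriol. TNFRSF14, CD22, CD72 and LAIR1 were called in none of the comparisons of agents.

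**Figure D1:**
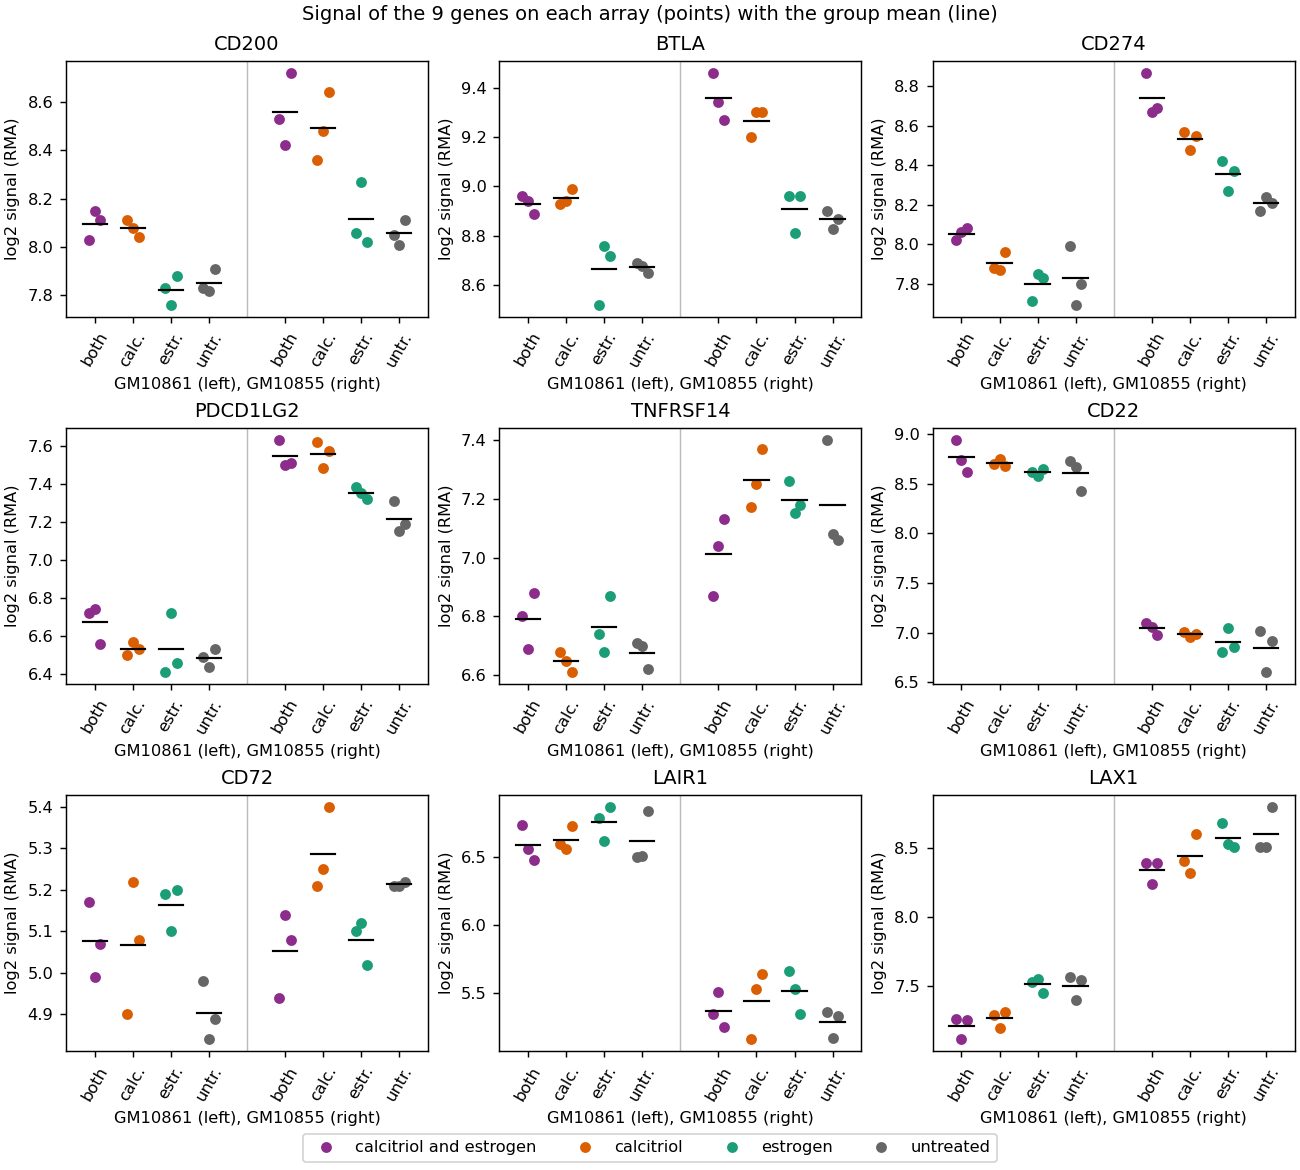
Deposited log2 signal of the 9 genes on each array, 1 panel per gene, with GM10861 left and GM10855 right in each. Each point is 1 array, colours mark the agents and the short lines are group means of 3 arrays. In the CD200 and BTLA panels every calcitriol point lies above every point without calcitriol in the same line, while the CD22 and LAIR1 panels separate the lines and not the agents.

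In GM10861, CD200 (probe set 8081657) gave 8.03, 8.15 and 8.11 with both agents and 8.11, 8.08 and 8.04 with calcitriol, against 7.83, 7.76 and 7.88 with estrogen and 7.83, 7.82 and 7.91 untreated. In GM10855 it gave 8.53, 8.42 and 8.72 with both agents and 8.36, 8.48 and 8.64 with calcitriol, against 8.06, 8.27 and 8.02 with estrogen and 8.05, 8.01 and 8.11 untreated. The 6 arrays with calcitriol were all above the 6 without it in each line, and the 2 groups with calcitriol overlapped with each other. CD200 was thereby 0.33 ± 0.0605 higher with calcitriol than untreated, or 1.26-fold (adjusted p = 0.00491), and 0.36 ± 0.0605 higher with both agents than with estrogen alone (adjusted p = 0.00207).

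In GM10861, BTLA (probe set 8089519) gave 8.96, 8.94 and 8.89 with both agents and 8.93, 8.94 and 8.99 with calcitriol, against 8.52, 8.76 and 8.72 with estrogen and 8.69, 8.68 and 8.65 untreated. In GM10855 it gave 9.46, 9.34 and 9.27 with both agents and 9.20, 9.30 and 9.30 with calcitriol, against 8.96, 8.81 and 8.96 with estrogen and 8.90, 8.83 and 8.87 untreated. As for CD200, no array with calcitriol fell among those without it in its line. The change was 0.34 ± 0.0521 with calcitriol against untreated, or 1.27-fold (adjusted p = 0.000669), and 0.35 ± 0.0521 with both agents against estrogen (adjusted p = 0.000388). Calcitriol alone against estrogen alone, both at 36 h, gave a change of 0.32 for BTLA and 0.31 for CD200 (adjusted p = 0.00158 and 0.00814). Both agents against untreated gave 0.37 ± 0.0521 for BTLA (adjusted p = 0.000159) and 0.37 ± 0.0605 for CD200 (0.00112).

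CD200 and BTLA were the only members called in calcitriol against untreated, that is 2 of 9, where 0.679% of all probe sets were called, 131 higher and 13 lower. By p they ranked 71 (CD200) and 40 (BTLA) among the 21214. The members' median change there was 0.125, against -0.001 over all probe sets. They were also the only 2 of 9 called in calcitriol against estrogen, where 0.57% of probe sets were called. Only 0.886% of probe sets had calcitriol arrays that lay above the untreated arrays without overlap in both lines, and CD200 and BTLA were the 2 members that did. Without the 3 arrays farthest from the others of their group, all of them GM10855, an alternative chosen after seeing the data, the CD200 call against untreated was lost (adjusted p = 0.0721).

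Over the 24 arrays, each centred on the mean of its line, CD200 and BTLA correlated with r = 0.83, and after centring on each group's mean with r = -0.29. The first value shares the calcitriol arrays of both genes, while the second leaves only the spread between arrays of 1 group. CD274 and PDCD1LG2 correlated with r = 0.79 by the first measure and 0.35 by the second, and BTLA and CD274 with 0.86 and 0.53. By the same line-centred measure over 24 arrays, the probe sets most like BTLA were those of TMEM156 (r = 0.965), ZNF589 (0.960), PTP4A1 (0.959), ARHGEF28 (0.947) and MAN1A1 (0.947). Those most like CD200 were MBNL2 (0.929), HIPK2 (0.925), MAN1A1 (0.903), MAPKAPK2 (0.901) and PPP1R2 (0.901). For LAX1 the highest values were lower, with HMCES at 0.767, SORBS2 at 0.762, LPIN1 at 0.753, DIPK1A at 0.745 and IFNAR1 at 0.733.

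The genes around CD200 and BTLA were read to place their change along the chromosome. On the far side of CD200, SLC9C1, a sperm sodium-proton exchanger gene, changed by -0.02 ± 0.0419 between arrays with and without calcitriol (adjusted p = 0.945). On the far side of BTLA, ATG3, an enzyme of autophagosome formation, changed by -0.03 ± 0.035 (adjusted p = 0.917). GCSAM, a signalling adaptor of germinal centre B cells just beyond SLC9C1, was 0.16 ± 0.0386 higher (adjusted p = 0.0407), a call lost in 16 of the 24 leave-one-out fits (up to 0.0971). It was the single one of 48 measured neighbours, up to 4 protein-coding genes to each side of each member in RefSeq's order, called in that comparison, where 1.47% of genes were. Further out on the CD200 side, C3orf52 changed by 0.12 ± 0.0521 (unadjusted p = 0.0362, adjusted p = 0.511) and TMPRSS7, a serine protease gene, by 0.16 ± 0.0542 (0.00681 and 0.248), without being called. In that comparison 5 of the 48 measured neighbours had an unadjusted p under 0.05, as did 8.73% of all probe sets. Next to the members that lie elsewhere, the changes were -0.15 for ATP2B4 beside LAX1 (adjusted p = 0.409), 0.02 for HES5 and -0.09 for PRXL2B beside TNFRSF14, -0.05 for MAG and -0.10 for FFAR1 beside CD22, -0.01 for TESK1 and 0.08 for SIT1 beside CD72, and 0.03 for TTYH1 beside LAIR1. ZBED6 and LILRA4, the remaining direct neighbours, had no probe set of their own.

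**Figure D2:**
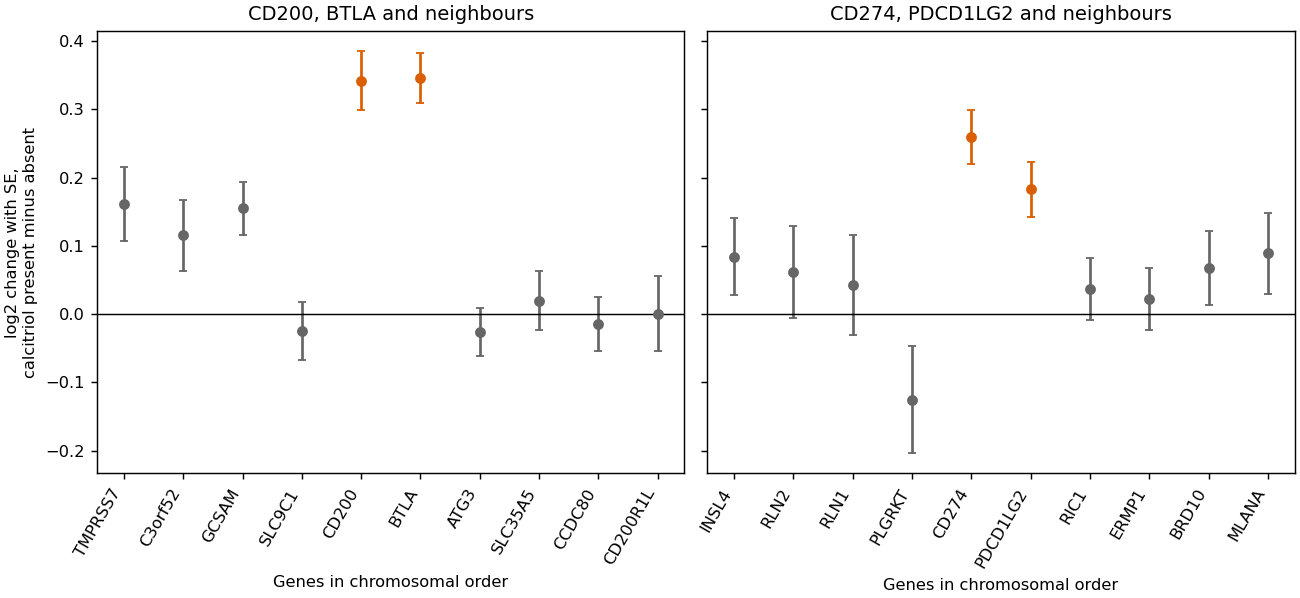
Change in log2 signal between arrays with and without calcitriol for genes in their order along the chromosome around CD200 and BTLA and around CD274 and PDCD1LG2, with bars of 1 SE from limma. CD200 and BTLA stand at 0.34 and 0.35 between SLC9C1 at -0.02 and ATG3 at -0.03.

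CD274 and PDCD1LG2, which encode the PD-1 ligands PD-L1 and PD-L2, are the other adjacent pair, on chromosome 9. In GM10861, CD274 (probe set 8154233) gave 8.02, 8.06 and 8.08 with both agents and 7.88, 7.87 and 7.96 with calcitriol, against 7.71, 7.85 and 7.83 with estrogen and 7.99, 7.69 and 7.80 untreated. In GM10855 it gave 8.87, 8.67 and 8.69 with both agents and 8.57, 8.48 and 8.55 with calcitriol, against 8.42, 8.27 and 8.37 with estrogen and 8.17, 8.24 and 8.21 untreated. The arrays with both agents were the highest 3 in each line (0.83% of probe sets had such arrays above those with estrogen alone in both lines, and 1.23% above untreated), and 1 untreated GM10861 array stood above the 3 calcitriol arrays of that line. CD274 was called with both agents against untreated (0.38 ± 0.0559, 1.3-fold, adjusted p = 0.000309) and against estrogen (0.32 ± 0.0559, adjusted p = 0.00255). With calcitriol alone it was 0.20 ± 0.0559 above untreated, short of a call (adjusted p = 0.16). Without that GM10861 array, untreated replicate 1, the adjusted p was 0.0439.

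Estrogen added to calcitriol gave CD274 a further 0.18 ± 0.0559, with no overlap between arrays with both agents and with calcitriol alone in either line, which 0.523% of probe sets showed. It was not called (adjusted p = 0.439). The interaction of the agents, the change on adding calcitriol to estrogen minus that on calcitriol alone, was 0.12 with a 95% interval half-width of 0.164 for CD274 (adjusted p = 0.992).

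In GM10861, PDCD1LG2 (probe set 8154245) gave 6.72, 6.74 and 6.56 with both agents and 6.50, 6.57 and 6.53 with calcitriol, against 6.41, 6.72 and 6.46 with estrogen and 6.49, 6.44 and 6.53 untreated. In GM10855 it gave 7.63, 7.50 and 7.51 with both agents and 7.62, 7.48 and 7.57 with calcitriol, against 7.38, 7.35 and 7.32 with estrogen and 7.31, 7.15 and 7.19 untreated. In GM10855 all 6 calcitriol arrays lay above the other 6, while in GM10861 an estrogen array stood among the highest. How many of all probe sets separate in this way in a single line was not counted. PDCD1LG2 was called only with both agents against untreated (0.26 ± 0.0572, adjusted p = 0.0207) and over all arrays with calcitriol against those without. The call with both agents was lost without GM10861 untreated replicate 2, GM10861 both-agent replicate 1 or 2, GM10855 untreated replicate 2 or GM10855 both-agent replicate 1 (up to 0.0704), with each array centred on its median, and without the 3 farthest arrays (0.096). Of the pair's outer neighbours, PLGRKT, a plasminogen receptor gene, changed by -0.13 ± 0.0787 (adjusted p = 0.735) and RIC1, a trafficking factor of the Golgi, by 0.04 ± 0.0456 (adjusted p = 0.909) between arrays with and without calcitriol.

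LAX1, a membrane adaptor that limits antigen receptor signalling in B and T cells, went the other way. In GM10861 the probe set (7908968) gave 7.26, 7.11 and 7.25 with both agents and 7.29, 7.19 and 7.31 with calcitriol, against 7.53, 7.55 and 7.45 with estrogen and 7.56, 7.40 and 7.54 untreated. In GM10855 it gave 8.39, 8.24 and 8.39 with both agents and 8.41, 8.32 and 8.60 with calcitriol, against 8.68, 8.53 and 8.51 with estrogen and 8.51, 8.51 and 8.80 untreated. All 6 GM10861 arrays with calcitriol lay below the 6 without, and in GM10855 1 calcitriol array stood among those without it. The share of all probe sets with such a separation in a single line was not counted. LAX1 was 0.20 ± 0.0634 below untreated with calcitriol alone (log2 change -0.20, adjusted p = 0.296). It was called with both agents against estrogen (-0.27 ± 0.0634, adjusted p = 0.0485) and with both agents against untreated (-0.28 ± 0.0634, adjusted p = 0.0245). The call against estrogen was lost on leaving out any 1 of the 12 arrays compared (0.0648 to 0.165). It was also lost with all probe sets, with each array centred on its median and in a model restricted to the groups compared (up to 0.0879). Without the 3 farthest arrays it was lost as well (0.0729). The call against untreated was lost without GM10861 untreated replicate 1 or 3, GM10861 both-agent replicate 2, GM10855 untreated replicate 3 or GM10855 both-agent replicate 2 (up to 0.0843).

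The comparison of both agents with estrogen thus held 4 called members of 9, where 0.754% of all probe sets were called, 144 higher and 16 lower, and 3 of 9 in every fit without 1 array. The comparison of both agents with untreated held 5, where 1.15% were called, 211 higher and 32 lower. That count was 3 without GM10861 both-agent replicate 2 and 3 when the model held no other arrays than those compared, and both cases lost the PDCD1LG2 and LAX1 calls. The comparisons with the same untreated or both-agent arrays share those arrays and are not separate evidence.

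**Figure D3:**
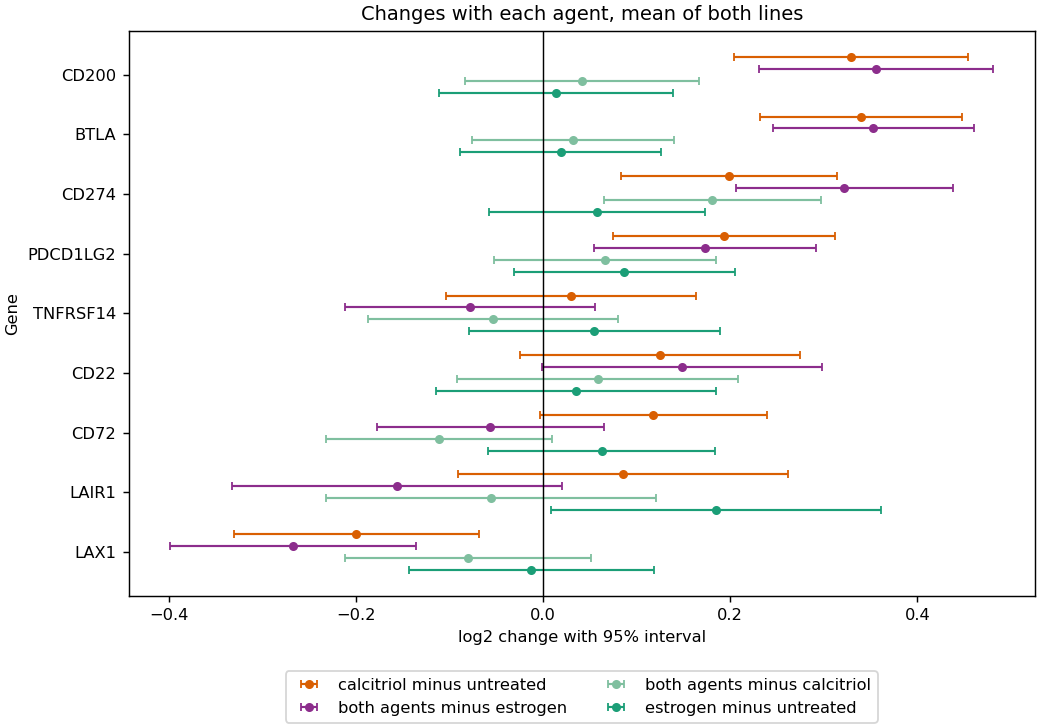
Change in log2 signal of the 9 genes with each agent, averaged over the lines, with unadjusted 95% intervals from limma. For CD200 and BTLA the intervals on adding calcitriol lie apart from those on adding estrogen, which cover 0, while CD274 also lies above 0 on adding estrogen to calcitriol.

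Over all 12 arrays with calcitriol against the 12 without, 5 of the 9 genes were called, where 1.41% of all probe sets were called. Of these, 4 were higher, where 1.17% of probe sets were, and 1 was lower, where 0.24% were. BTLA was 0.35 ± 0.0368 higher (adjusted p = 1.59e-06), CD200 0.34 ± 0.0428 (1.65e-05), CD274 0.26 ± 0.0395 (0.000242) and PDCD1LG2 0.18 ± 0.0405 (0.0146), and LAX1 changed by -0.23 ± 0.0448 (0.00372). These 5 calls were kept in each of the 24 fits without 1 array. CD22, a sialic acid-binding inhibitory receptor of B cells, changed by 0.14 (adjusted p = 0.346), CD72, an inhibitory C-type lectin of B cells, by 0.03 (0.919), LAIR1, an inhibitory collagen receptor, by -0.04 (0.944) and TNFRSF14 by -0.02 (0.952). The untreated arrays at 0 h enter this contrast, so it too holds time in culture.

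With calcitriol against untreated, CD22 changed by 0.12 (adjusted p = 0.861), CD72 by 0.12 (0.784), LAIR1 by 0.08 (0.964) and TNFRSF14 by 0.03 (0.99). With both agents against estrogen, CD22 changed by 0.15 (adjusted p = 0.637), LAIR1 by -0.16 (0.702), TNFRSF14 by -0.08 (0.843) and CD72 by -0.06 (0.888). Among these 4 only CD22 had the same sign in both comparisons as CD200 and BTLA, and its calcitriol arrays overlapped with the others in both lines.

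Estrogen alone against untreated gave 0 called members and 0 called probe sets of 21214 (0.0%) by limma. At an unadjusted p under 0.05 stood 1 member, LAIR1 at 0.18 ± 0.0852 (adjusted p = 0.948), and 1097 of all probe sets (5.17%). Estrogen added to calcitriol likewise called 0 probe sets (0.0%), with 1 member, CD274, and 1772 of all probe sets (8.35%) at an unadjusted p under 0.05. The interaction called 0 (0.0%), with 1 member, CD72 at -0.17 (adjusted p = 0.992), and 4.41% of all probe sets at an unadjusted p under 0.05. These counts do not show that estrogen left the genes unchanged.

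Within each line, the change over arrays with and without calcitriol was smaller in GM10861 for the 4 genes that were higher, with 1 of 9 members called in GM10861, where 0.368% of probe sets were, and 4 in GM10855, where 1.4% were. CD200 changed by 0.25 in GM10861 (adjusted p = 0.095) and by 0.44 in GM10855 (7.89e-05), and BTLA by 0.27 (0.0125) and 0.42 (1.64e-05). CD274 changed by 0.16 in GM10861 (adjusted p = 0.399) and by 0.36 in GM10855 (0.000422), and PDCD1LG2 by 0.10 (0.779) and 0.27 (0.0118). The difference itself was not called for any of the 9 genes, where 0.104% of all probe sets were. It was -0.19 ± 0.0855 for CD200 (adjusted p = 0.531), -0.15 for BTLA (0.567), -0.19 for CD274 (0.479) and -0.17 for PDCD1LG2 (0.554), and 3 members had an unadjusted p under 0.05, as did 8.98% of all probe sets. LAX1 changed by -0.27 in GM10861 and -0.20 in GM10855 (adjusted p = 0.0713 and 0.171), with a difference of -0.07 (0.871). With calcitriol against untreated, CD200 changed by 0.22 in GM10861 (limma adjusted p = 0.758) and by 0.44 in GM10855 (0.0106). BTLA changed there by 0.28 (0.287) and 0.40 (0.00622). CD274 changed by 0.07 and 0.32 and PDCD1LG2 by 0.05 and 0.34, without a call. With both agents against estrogen, adjusted p in GM10861 was 0.564 for CD200 and 0.421 for BTLA, against 0.00937 and 0.00198 in GM10855.

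**Figure D4:**
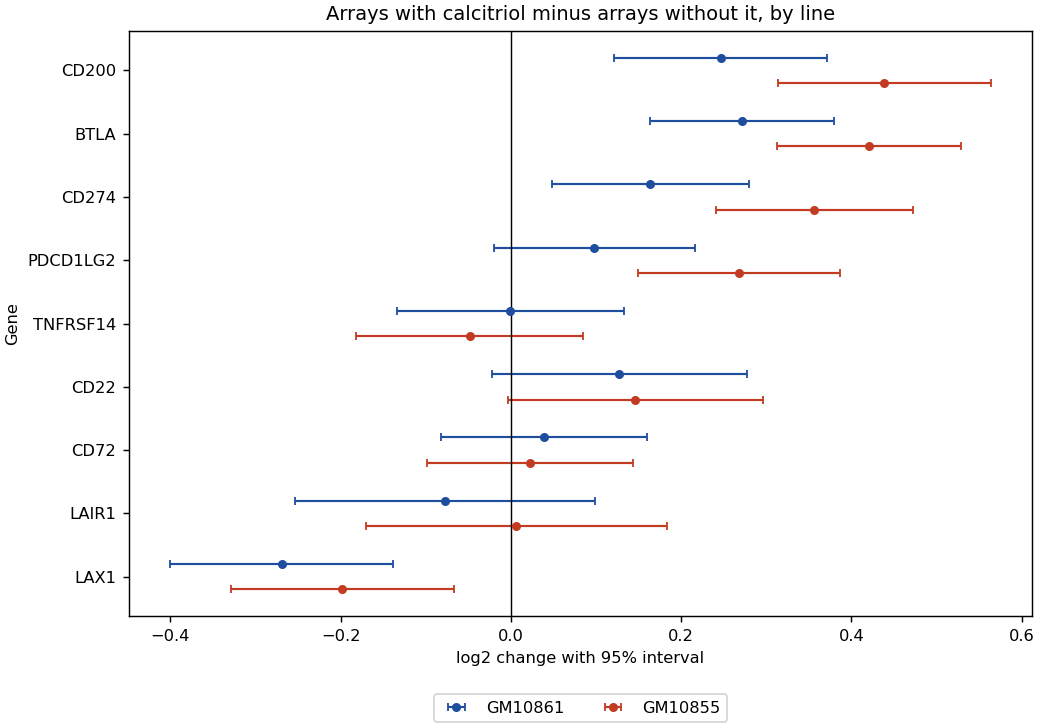
Change in log2 signal between arrays with and without calcitriol in GM10861 and in GM10855, with 95% intervals from limma. The GM10855 points of CD200, BTLA, CD274 and PDCD1LG2 lie to the right of the GM10861 points, with overlapping intervals.

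Levels of these genes were also compared between the lines. All 9 members were called between GM10861 and GM10855 over all agents, where 41.8% of all probe sets were called. CD22 was 1.73 ± 0.0512 higher in GM10861, or 3.32-fold (adjusted p = 1.61e-18), with a lowest, median and highest array of 8.42, 8.68 and 8.94 in GM10861 against 6.60, 6.99 and 7.10 in GM10855. LAIR1 was 1.25 ± 0.0602 higher, or 2.37-fold (adjusted p = 2.11e-14), with 6.48, 6.61 and 6.87 in GM10861 against 5.16, 5.36 and 5.66 in GM10855. These were the 2 members higher in GM10861, where 23.4% of probe sets were called higher and 18.4% lower, and neither overlapped between the lines on any of the 24 arrays.

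LAX1 was lower in GM10861 by a log2 difference of -1.12 ± 0.0448 (2.18-fold, adjusted p = 5.16e-16), with 7.11, 7.36 and 7.56 in GM10861 against 8.24, 8.51 and 8.80 in GM10855. PDCD1LG2 differed by -0.86 ± 0.0405 (adjusted p = 1.23e-14), with 6.41, 6.53 and 6.74 in GM10861 against 7.15, 7.43 and 7.63 in GM10855. CD274 differed by -0.56 ± 0.0395 (adjusted p = 2.15e-11), with 7.69, 7.88 and 8.08 in GM10861 against 8.17, 8.45 and 8.87 in GM10855. The PD-1 ligand genes were thus both lower in GM10861 with no overlap between lines, as were LAX1 and, in the other direction, CD22 and LAIR1, while 10.4% of all probe sets showed no overlap between the lines.

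TNFRSF14, the tumour necrosis factor receptor family member that binds BTLA, differed by -0.44 (adjusted p = 1.95e-08), with 6.61, 6.70 and 6.88 in GM10861 against 6.87, 7.16 and 7.40 in GM10855. CD200 differed by -0.34 (adjusted p = 4.21e-07) and BTLA by -0.29 (4.8e-07), and their lines overlapped, with GM10861 arrays given calcitriol reaching the untreated arrays of GM10855. CD72 differed by -0.11 (adjusted p = 0.0428), with 4.84, 5.08 and 5.22 in GM10861 against 4.94, 5.17 and 5.40 in GM10855, and this call was lost in 16 of the 24 leave-one-out fits (up to 0.0943) and under 5 of 6 other settings (up to 0.291). On the untreated arrays alone 7 of the 9 members were called between GM10861 and GM10855, where 24.3% of all probe sets were. There CD72 differed by -0.31 (adjusted p = 0.00756), CD200 by -0.20 (0.0921) and BTLA by -0.19 (0.0597), so the last 2 were not called. CD22 differed by 1.76, LAIR1 by 1.33, LAX1 by -1.10, PDCD1LG2 by -0.73, TNFRSF14 by -0.50 and CD274 by -0.38 on these arrays, with the same signs as over all agents. Each line comes from 1 person, so these differences describe the 2 lines. Markers differed as well: all 7 plasma cell markers were called between the lines, 5 of them lower in GM10861 (median -0.54), and 6 of 7 B cell markers, 2 of them lower (median 0.14), where 42.3% of genes were called. Called too were 2 of 7 T cell, 2 of 6 NK cell and 2 of 7 monocyte markers, all lower in GM10861. The part of these markers in the line differences was not tested.

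**Figure D5:**
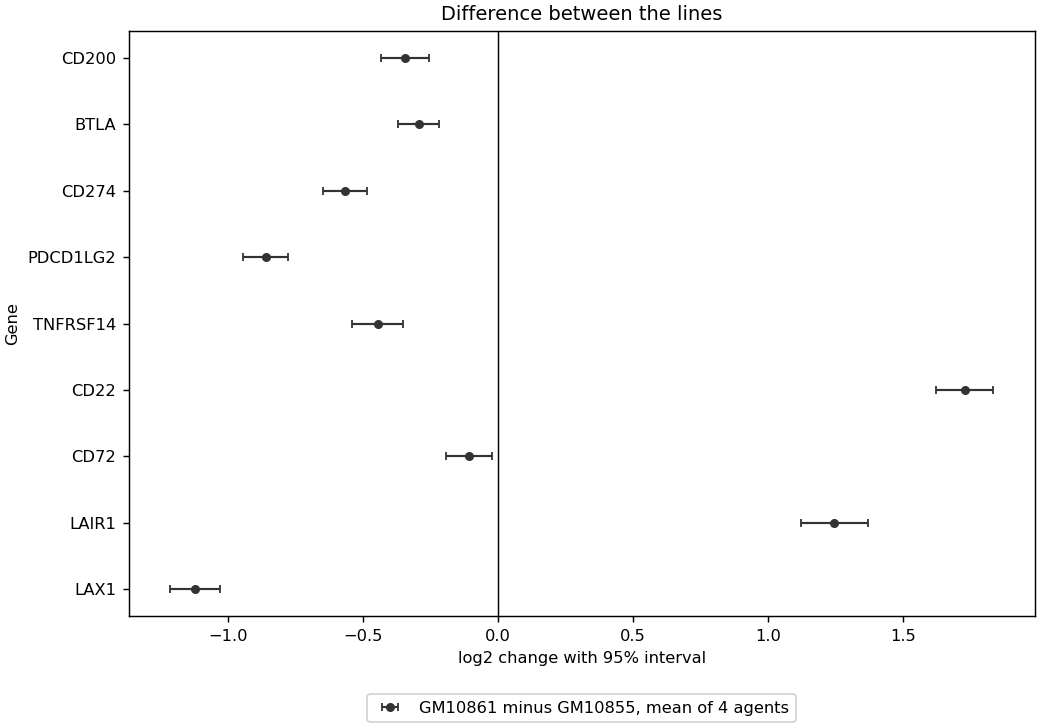
Difference in log2 signal between GM10861 and GM10855 over all agents for the 9 genes, with 95% intervals from limma. CD22 and LAIR1 stand to the right of 0 and the other 7 genes to the left, with CD72 nearest to 0.

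The partners of these genes were followed from a list of 15 ligands and receptors, of which 13 had a probe set of their own. Over arrays with and without calcitriol, LTA, a lymphotoxin that binds TNFRSF14, was 0.31 ± 0.0502 higher (adjusted p = 0.000465), and CD80, which binds CD274 as well as CD28 and CTLA4, was 0.21 ± 0.0425 higher (0.00697). CD200R1, the receptor of CD200, was lower at -0.19 ± 0.0448 (adjusted p = 0.0303), a call lost in 12 of the 24 leave-one-out fits. These 3 of 13 were called where 1.47% of 18417 genes were. In calcitriol against untreated, LTA alone was called (0.40 ± 0.071, adjusted p = 0.00348) where 0.722% of genes were, and in both agents against estrogen none of the 13 was, where 0.776% were. In that comparison 4 of the 13 had an unadjusted p under 0.05, as did 7.94% of all probe sets.

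Of 31 further inhibitory receptors of lymphocytes, 30 were measured and limma called 0 in each comparison of agents given here. At an unadjusted p under 0.05 stood 3 of the 30 in the comparison of arrays with and without calcitriol, as did 8.73% of all probe sets. PECAM1, an inhibitory adhesion receptor, was nearest to a call there at -0.23 ± 0.0605 (adjusted p = 0.056), followed by FCRL4 at 0.16 ± 0.0563 (0.271). FCGR2B, the inhibitory Fc receptor of B cells, changed by -0.04.

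Of 20 phosphatases and adaptors that act downstream, 18 were measured and 2 were called over arrays with and without calcitriol, against 1.47% of all genes. PTPN2, a tyrosine phosphatase that dephosphorylates JAK kinases, was 0.33 ± 0.0597 higher (adjusted p = 0.00168), and INPP5D, which encodes SHIP-1, was 0.19 ± 0.0406 higher (0.00888). PTPN6, which encodes SHP-1, changed by -0.06. None of the 18 was called in calcitriol against untreated or in both agents against estrogen, where 0.722% and 0.776% of genes were. In each, 2 of the 18 had an unadjusted p under 0.05, as did 6.55% and 7.94% of all probe sets.

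All 18 listed costimulatory genes were measured, and 2 were called over arrays with and without calcitriol, again against 1.47% of all genes. TNFSF4, which encodes the OX40 ligand, was 0.56 higher over arrays with and without calcitriol (adjusted p = 1.8e-08) and 0.51 higher with calcitriol than untreated (5.5e-05). With both agents against estrogen it was 0.61 higher and the only 1 of the 18 called, where 0.776% of genes were. That call was kept in all 12 fits without 1 array (adjusted p up to 2.4e-05). CD27, a tumour necrosis factor receptor of memory B cells, was 0.24 higher over arrays with and without calcitriol (adjusted p = 0.0073). Of 15 listed regulators of the PD-1 ligands 14 were measured, and HIF1A, the oxygen-regulated transcription factor that can induce CD274, was the gene called, at 0.30 (adjusted p = 3.4e-05) over arrays with and without calcitriol. It was 0.37 higher with both agents than with estrogen (adjusted p = 0.00041) and not called in calcitriol against untreated, where 2 of the 14 and 6.55% of all probe sets had an unadjusted p under 0.05.

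In both agents against untreated, where 1.15% of 18417 genes were called, the calls on these lists were CD80 at 0.30 (adjusted p = 0.00879), LTA at 0.34 (0.0143), INPP5D at 0.26 (0.0218), TNFSF4 at 0.60 (3.5e-06), TNFRSF9, the costimulatory receptor 4-1BB, at 0.29 (0.041) and HIF1A at 0.30 (0.00356). The LTA call was lost without GM10861 untreated replicate 2 (0.0506), the INPP5D call in 7 of 12 fits without 1 array and the TNFRSF9 call in 9 of 12.

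Markers of cell types were read beside these values, since in RNA from a bulk culture fewer cells of a type and less RNA per cell cannot be told apart. The mean log2 signal of 7 B cell markers ran from 8.41 to 8.71 on arrays with calcitriol and from 8.16 to 8.38 without. Of the 7, 4 were called higher, CD79A, CR2, PAX5 and MS4A1, where 1.47% of 18417 genes were called. The mean of 7 plasma cell markers ran from 8.85 to 9.40 with calcitriol and from 8.50 to 9.15 without. Of these, 3 were called higher, CD38, TNFRSF17 and SDC1, against the same 1.47%. The ranges of markers pool both lines, so they also hold the difference between lines. For the plasma cell markers its median was -0.54, GM10861 minus GM10855. Leaving out 1 array lost the SDC1 call in 9 of 24 fits (up to 0.0614) and the MS4A1 call in 4 of 24 (up to 0.0524). The part of these shifts in the changes of CD200, BTLA, CD274, PDCD1LG2 and LAX1 was not tested. T cell markers ran from 4.94 to 5.07 with calcitriol and from 4.93 to 5.10 without, NK cell markers from 4.10 to 4.26 and from 3.99 to 4.35, and monocyte markers from 4.39 to 4.73 and from 4.46 to 4.72. None of these 20 markers was called by limma between arrays with and without calcitriol. In that comparison 2 of them had an unadjusted p under 0.05, as did 8.73% of all probe sets. Of these markers, 6 of 7 T cell, 5 of 6 NK cell and 7 of 7 monocyte markers lay below the median of the array.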

How the data were processed

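RNA from 24 arrays, 3 for each of 8 groups of cell line and agent, was read from the authors' deposited table of log2 signals, 1 value per probe set and array. Per the submitters' processing notes these came from RMA in Affymetrix Expression Console 1.0.1, and no genome build for the array is given in the sources used here. Array medians ran from 5.38 to 5.50, and no 2 arrays were identical. The number of arrays limits the precision.

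A model with 1 mean per group was fitted to the 21214 probe sets with a symbol with limma 3.58.1 in R 4.3.3 (16 residual degrees of freedom, empirical Bayes moderation, two-sided tests), and p-values were adjusted by Benjamini-Hochberg within each comparison. Platform symbols were updated by Entrez ID where RefSeq allowed (19429 probe sets). Listed genes were represented by the single-symbol probe set with the highest mean. The fitting was tested on simulated data.

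The 9 members, the gene lists and the rule for naming genes were chosen with earlier results of these data known. All 9 members are named with values for arrays with and without calcitriol and between the lines. Other comparisons give values for some of them only. Also named are list genes that were called, the genes directly next to each member, and the 5 probe sets most correlated with CD200, BTLA and LAX1. PECAM1, FCRL4, FCGR2B, PTPN6, GCSAM, C3orf52 and TMPRSS7 were named after their values were seen. Alternatives were a filter on dim probe sets (mean log2 of at least 5), all 33297 probe sets, median centring, cyclic loess, trended and robust moderation, array weights, a model restricted to the groups compared, and leaving out each array.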

Additional observations from a re-analysis of the deposited data

Results flagged for a closer look

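Among 54 combinations of gene and comparison, 4 had every array of 1 line moving one way, against the mean of the group it was compared with, and every array of the other line the opposite way. The same pattern was seen in 8.75% of 127284 combinations over all probe sets. None of these differences between the lines was called by limma over all probe sets, and none of the calcitriol changes described above for CD200, BTLA, CD274, PDCD1LG2 or LAX1 was among them.

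TNFRSF14 gave 2 of them. With both agents it stood at 6.80, 6.69 and 6.88 in GM10861, against 6.68, 6.65 and 6.61 with calcitriol alone and 6.71, 6.70 and 6.62 untreated. In GM10855 it stood at 6.87, 7.04 and 7.13 with both agents, against 7.17, 7.25 and 7.37 with calcitriol alone and 7.40, 7.08 and 7.06 untreated. On adding estrogen to calcitriol the change was 0.145 in GM10861 and -0.251 in GM10855, a difference of 0.40 ± 0.129 (unadjusted p = 0.00551, adjusted p = 0.632). With both agents against untreated the change was 0.116 in GM10861 and -0.163 in GM10855, a difference of 0.28 ± 0.129 (unadjusted p = 0.0417, adjusted p = 0.441).

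CD72 gave the other 2. In GM10861 it stood at 5.17, 4.99 and 5.07 with both agents and 5.19, 5.10 and 5.20 with estrogen, all above the untreated arrays at 4.98, 4.84 and 4.89. In GM10855 it stood at 4.94, 5.14 and 5.08 with both agents and 5.10, 5.12 and 5.02 with estrogen, all below the untreated arrays at 5.21, 5.21 and 5.22. The difference between the lines was 0.39 ± 0.117 for estrogen against untreated (unadjusted p = 0.00304, adjusted p = 0.799) and 0.33 ± 0.117 for both agents against untreated (unadjusted p = 0.00911, adjusted p = 0.285). These CD72 signals lie below the median of the array.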

How the results depend on the processing

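The log2 changes of the 9 genes moved by less than the pooled SD within groups (0.0711 for BTLA to 0.156 for LAIR1) in 2193 of 2196 recomputed values, and none of those called changed sign. The other 3 were the difference between GM10861 and GM10855 with cyclic loess, at -0.39 for BTLA and -0.65 for CD274, and the LAX1 interaction without the 3 arrays farthest from their group, at 0.05. The dim filter, all probe sets, trended and robust moderation and the restricted model cannot move a log2 change. Leaving out 1 array alters only part of 1 group mean. This tally of log2 changes could thus mostly not come out otherwise and is no measure of stability. Of the recomputed counts of called members, 241 of 244 stayed within 1.5 times the reported count. The exceptions were both agents against untreated, with 3 called members in a model restricted to the groups compared and 3 to 5 over the fits without 1 array, and calcitriol against untreated, with 1 without the 3 arrays farthest from their group, an alternative chosen after seeing the data. The limit of 1.5 times lets a single lost call pass, as for LAX1 against estrogen, and counts that stayed at 0 are among the 241. Fits without 1 array gave 2 to 3 called members for calcitriol against untreated and 3 for both agents against estrogen. They gave 5 for arrays with calcitriol against those without and 8 to 9 for GM10861 against GM10855. Each gene has 1 probe set, so averaging probe sets of a gene changed nothing. Over all probe sets, estrogen against untreated gave 3 calls with the dim filter and 6 with trended and robust moderation in place of 0, and estrogen added to calcitriol gave 2 with the dim filter, 1 with array weights and 3 without the 3 arrays. Both agents against untreated gave 371 calls with trended and robust moderation, 138 in a model restricted to the groups compared and 134 without the 3 arrays, in place of 243. Both agents against estrogen gave 99 to 139 on leaving out 1 array and 99 in a model restricted to the groups compared in place of 160, and the difference between lines gave 14 to 41 on leaving out 1 array, 12 with all probe sets and 55 with trended and robust moderation in place of 22. The cause of these moves was not tested. No paired analysis was possible because the labels give no replicate numbers, and the numbers used here only name arrays in order of accession. The deposited values come with no detection call, and the signals of CD72, and of LAIR1 in GM10855, lie near or below the array medians.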
